A study of Homo sapiens with 6 samples.

Results

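The genes described here build the nuclear pore or carry cargo through it. Members were chosen by symbol: nucleoporins named NUP with a number, karyopherins (KPNA, KPNB), importins (IPO), exportins (XPO), and 15 further genes named singly, such as RAN, RCC1, SEH1L and CSE1L. On the array 86 probes of 59 genes met this rule, out of 20043 genes named there. The RNA came from HCT116, an established human colorectal carcinoma cell line, as 3 arrays of cells with a short hairpin RNA against TCF7L1 (shTCF7L1) and 3 arrays of cells with a control hairpin (shCtrl). Cells of both groups therefore carried a hairpin, and the series calls the 3 samples of each group biological replicates. Whether the hairpin lines were clones or pools, and the time after knockdown, is not given in the sources used here. Levels are Illumina bead signals after background correction and quantile normalization, on a log2 scale, and a difference is shTCF7L1 minus shCtrl. A gene was called changed at a Benjamini-Hochberg adjusted p below 0.05 in limma, adjusted over all 10470 genes tested.

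The nuclear pore is a ring-shaped channel in the nuclear envelope, built from nucleoporins that form a scaffold (the Y complex and the inner ring), a membrane anchor, a central barrier of phenylalanine-glycine (FG) repeats, cytoplasmic filaments and a nuclear basket. Importins bind a nuclear localization signal and release their cargo when the GTP-bound form of the small GTPase Ran binds them inside the nucleus, and exportins bind cargo together with Ran-GTP and release it in the cytoplasm. Proliferating epithelial cells rebuild their pores after every mitosis, because the envelope breaks down in that phase.

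The promoters of SEH1L and CSE1L are shown because these are the changed members with a matched promoter. Each runs from 250 bases before to 50 bases after the start site, 5′ to 3′ on the gene's strand, from RefSeq on build GRCh38.p14. The SEH1L stretch is chr18:12947761-12948060 on the plus strand and the CSE1L stretch is chr20:49046062-49046361 on the plus strand. Capitals mark any match on either strand to the TCF/LEF core letters CTTTGA, to TTTGAA (the letters of a cell cycle homology element) or to the CCAAT box; the first 2 overlap where CTTTGAA occurs.
SEH1L: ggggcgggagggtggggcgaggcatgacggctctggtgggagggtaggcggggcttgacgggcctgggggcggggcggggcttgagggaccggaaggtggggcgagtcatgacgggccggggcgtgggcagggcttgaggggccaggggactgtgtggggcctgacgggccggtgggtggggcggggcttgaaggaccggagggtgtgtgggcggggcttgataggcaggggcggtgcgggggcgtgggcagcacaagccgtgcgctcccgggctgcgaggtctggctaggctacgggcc
CSE1L: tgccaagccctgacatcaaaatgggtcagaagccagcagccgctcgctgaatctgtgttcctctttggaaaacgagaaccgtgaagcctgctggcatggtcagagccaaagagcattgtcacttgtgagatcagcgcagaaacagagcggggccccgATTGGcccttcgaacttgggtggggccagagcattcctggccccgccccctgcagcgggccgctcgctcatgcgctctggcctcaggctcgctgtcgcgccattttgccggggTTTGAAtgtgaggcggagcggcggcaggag
The SEH1L window held none of these letters, and the CSE1L window held 1 inverted CCAAT box (ATTGG) and 1 TTTGAA. Promoters of 51 of the 59 members were matched, and that of KPNA4, the third changed member, was not. CTTTGA was found in 7 of these 51 (13.7%), against 11.8% of 8501 tested genes with a promoter and 15.5% of all 27305 genes with one. TTTGAA was found in 14 (27.5%), against 13.6% of tested and 18.2% of all genes. CCAAT was found in 21 (41.2%), against 44% of tested and 39.7% of all genes.

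TCF7L1 itself, a DNA-binding protein of the TCF/LEF family that acts in Wnt signalling, was close to background. Its only probe gave 29.3, 32.4 and 25.4 bead signal units on the shTCF7L1 arrays, against 45.1, 35.8 and 40.6 units on the shCtrl arrays. It was above background on 0 of 3 shTCF7L1 arrays and on 2 of 3 shCtrl arrays. TCF7L1 failed the detection filter and was added to the tested genes by name. Its log2 difference was -0.53 (SE 0.20, limma adjusted p = 0.0800). With shTCF7L1 values raised to the lowest detected level of their array, the shCtrl mean was 1.02-fold higher, which was not tested. The shCtrl values were not raised. The extent of the knockdown is therefore not settled by these arrays. Of 8 epithelial markers, EPCAM, CDH1, KRT8, KRT18, KRT19 and CDX2 were detected on all arrays, while CDX1 and VIL1 were detected on none. KRT8, a keratin of simple epithelia, fell by 0.82 on the log2 scale (SE 0.24, adjusted p = 0.0305), a call that was lost without shTCF7L1 replicates 1 or 2 or shCtrl replicates 2 or 3 (adjusted p up to 0.136). KRT8 also failed to pass without a detection filter (adjusted p = 0.128) and when the authors' own processed values were used (0.0918). The other 5 detected epithelial markers did not pass, with EPCAM at 0.42, CDX2 at 0.08, KRT19 at -0.02, KRT18 at -0.37 and CDH1 at -0.53. For KRT8, KRT18 and CDH1, 3 of the 6 tested, shTCF7L1 values were lower without overlap. Of all tested genes 15.8% were lower without overlap. The other kept KRT18 probe gave -0.14 with overlapping groups, and the other kept EPCAM probes gave 0.00 and 0.19. Of 10 markers of other cells, 3 were tested (CD68, COL1A1 and ALB). Their normalized levels, taken off the log2 scale and summed, were 226 to 269 in shTCF7L1 and 161 to 219 in shCtrl. PTPRC, CD3E, COL1A2, PECAM1 and INS were detected on no array, and COL3A1 and VWF on 1 array each. COL1A1, a fibrillar collagen gene, rose by 1.14 on the log2 scale (SE 0.28, limma adjusted p = 0.0116). It did not pass without shTCF7L1 replicate 1 or shCtrl replicate 1 (adjusted p up to 0.0652) or without a detection filter (0.111). CD68 and ALB gave -0.15 and 0.35 and did not pass, with overlapping groups for CD68 and higher shTCF7L1 values without overlap for ALB. The other kept CD68 probe gave 0.55 (SE 0.21, limma adjusted p = 0.0887), with shTCF7L1 values higher without overlap. The part of these shifts in the results below was not tested. The groups sat on separate runs of positions of 1 chip, so position and group cannot be told apart. Arrays correlated at 0.971 to 0.975 within and 0.942 to 0.948 between groups.

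Of the 59 genes, 56 passed the detection filter and were tested, and 54 of these were detected on all 6 arrays. KPNA7, NUP210L and POM121 had 5 probes in all, each above background on 0 of the 6 arrays, and were not tested. Among the 56 tested genes 1 rose, 2 fell and 53 did not pass, a share of 5.36%. The share over all tested genes was 15% (7.85% higher and 7.11% lower). SEH1L and CSE1L fell, and KPNA4 rose. In such bulk RNA, fewer cells of a kind and less RNA per cell cannot be told apart. At an unadjusted p below 0.05 there were 17 members (30.4%), 11 lower and 6 higher, against 29.8% of all genes. Of all 10470 tested genes, 1471 were lower and 1654 higher at that unadjusted p in limma. The groups did not overlap for 22 members (39.3%), 14 lower and 8 higher, against 33.9% of all genes (15.8% lower and 18.1% higher). The median difference of the members was -0.17 (log2), and that of all tested genes was 0.02. A value below 0 was seen in 37 of 56 members (66.1%), against 48% of all genes. The members' median level on each array (log2) overlapped between groups. It was 8.026, 8.027 and 7.75 in shTCF7L1, against 8.181, 7.997 and 8.009 in shCtrl. All members were read on the same 6 arrays and are not independent replicates, and their shift as a set was not tested. With the processed values of the authors the members' median difference was -0.06 and that of all genes 0.13. The count of lower members was 4 without shTCF7L1 replicate 1 and 1 without shTCF7L1 replicate 3 or shCtrl replicate 2. The count of higher members was 0 without shTCF7L1 replicate 2 or any 1 of the 3 shCtrl arrays, where 2 to 5 members were higher at an unadjusted p below 0.05 in limma.

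**Figure D1:**
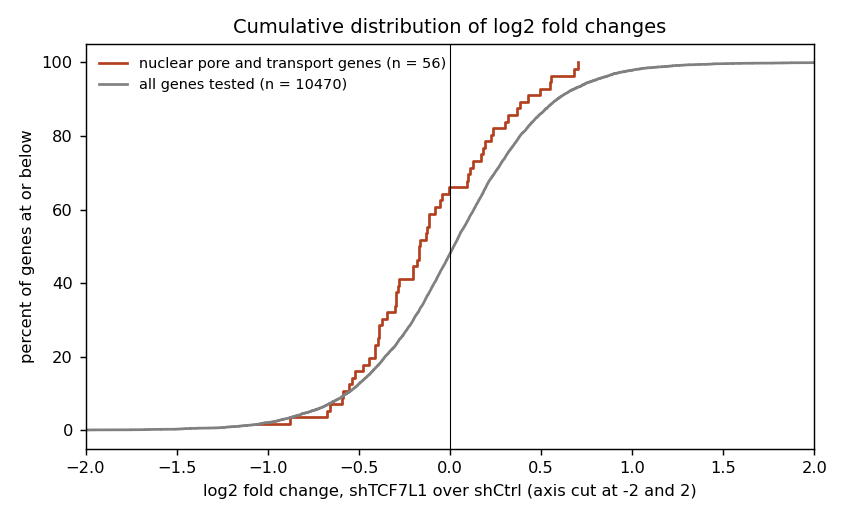
Cumulative percent of genes (vertical axis) at or below each log2 difference between shTCF7L1 and shCtrl (horizontal axis), for the 56 tested members in orange and all 10470 tested genes in grey. The members' line crosses 0 at 66.1% and that of all genes at 48%, and no member lies beyond -1.07 or 0.70.

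The Y complex is the outer scaffold ring of the pore and also binds kinetochores in mitosis. SEH1L fell, 8 of the 9 tested genes of the complex did not pass, and the median difference was -0.21. SEH1L, a propeller subunit that is also part of the GATOR2 complex of amino acid signalling, was the member with the largest difference of all 56. Its probe ILMN_2381138 read 6.57, 7.29 and 7.37 (log2 level) on the shTCF7L1 arrays, against 8.19, 7.91 and 8.34 on the shCtrl arrays. All shTCF7L1 values lay below all shCtrl values, and shTCF7L1 replicate 1 was the lowest. The mean was 7.08 ± 0.45 in shTCF7L1 and 8.14 ± 0.22 in shCtrl (SD, n = 3 each), so that SEH1L fell by 1.07 (log2; SE 0.23, 2.09-fold, adjusted p = 0.00692). The call held with each array left out in turn (adjusted p up to 0.0369), but not with the processed values of the authors (adjusted p = 0.0655) or without a detection filter (adjusted p = 0.0541).

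Other SEH1L probes showed a smaller difference. ILMN_1708619, which the platform assigns to the same RefSeq transcript as the called probe, read 7.04, 7.21 and 6.83 in shTCF7L1, against 7.22, 6.95 and 7.28 in shCtrl. ILMN_1705032, assigned to another SEH1L transcript, read 6.02, 6.32 and 6.01 in shTCF7L1, against 6.70, 6.44 and 6.11 in shCtrl. The groups overlapped for both, with differences of -0.13 (SE 0.20, adjusted p = 0.727) and -0.30 (SE 0.21, adjusted p = 0.378). The level of the called probe relative to ILMN_1708619 on the same array was 0.05 ± 0.51 in shTCF7L1 and 0.99 ± 0.05 in shCtrl (SD, n = 3 each). Relative to ILMN_1705032 it was 0.96 ± 0.41 in shTCF7L1 and 1.73 ± 0.43 in shCtrl. Neither relative level overlapped between groups (exact 2-sided permutation p = 0.1, the smallest that 3 against 3 arrays allow, and 0.15 adjusted over 6 such comparisons, which were chosen after the values were seen). Averaged over its 3 probes SEH1L gave -0.50 (adjusted p = 0.0756) and was not called. A probe reads a short stretch of a transcript, so these 3 probes do not settle the total SEH1L level.

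The other Y complex genes stayed below the threshold on both sides of 0. NUP85 gave -0.59 (SE 0.23, adjusted p = 0.103), with 9.41, 8.46 and 9.02 in shTCF7L1 against 9.45, 9.54 and 9.66 in shCtrl. NUP37, a small peripheral subunit, gave -0.52 (SE 0.21, adjusted p = 0.101), with 9.77, 9.78 and 9.28 in shTCF7L1 against 10.00, 10.26 and 10.13 in shCtrl. In both genes the groups did not overlap, although NUP85 in shTCF7L1 replicate 1 came close to the lowest shCtrl value. Without that array NUP85 passed (-0.81, adjusted p = 0.0450), and without shTCF7L1 replicate 2 it gave -0.33 (adjusted p = 0.372). SEC13, shared with the COPII coat of the secretory pathway, and NUP107 gave -0.29 and -0.21. The other SEC13 probe gave 0.18. NUP133, AHCTF1 (which recruits the Y complex to chromatin), NUP43 and NUP160 gave values from 0.17 to 0.32. NUP43 had the narrowest spread of these, with 5.28, 5.24 and 5.29 in shTCF7L1 against values of 4.94 to 5.0 in shCtrl, at levels just above background. It was called with the processed values of the authors alone among the alternatives.

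**Figure D2:**
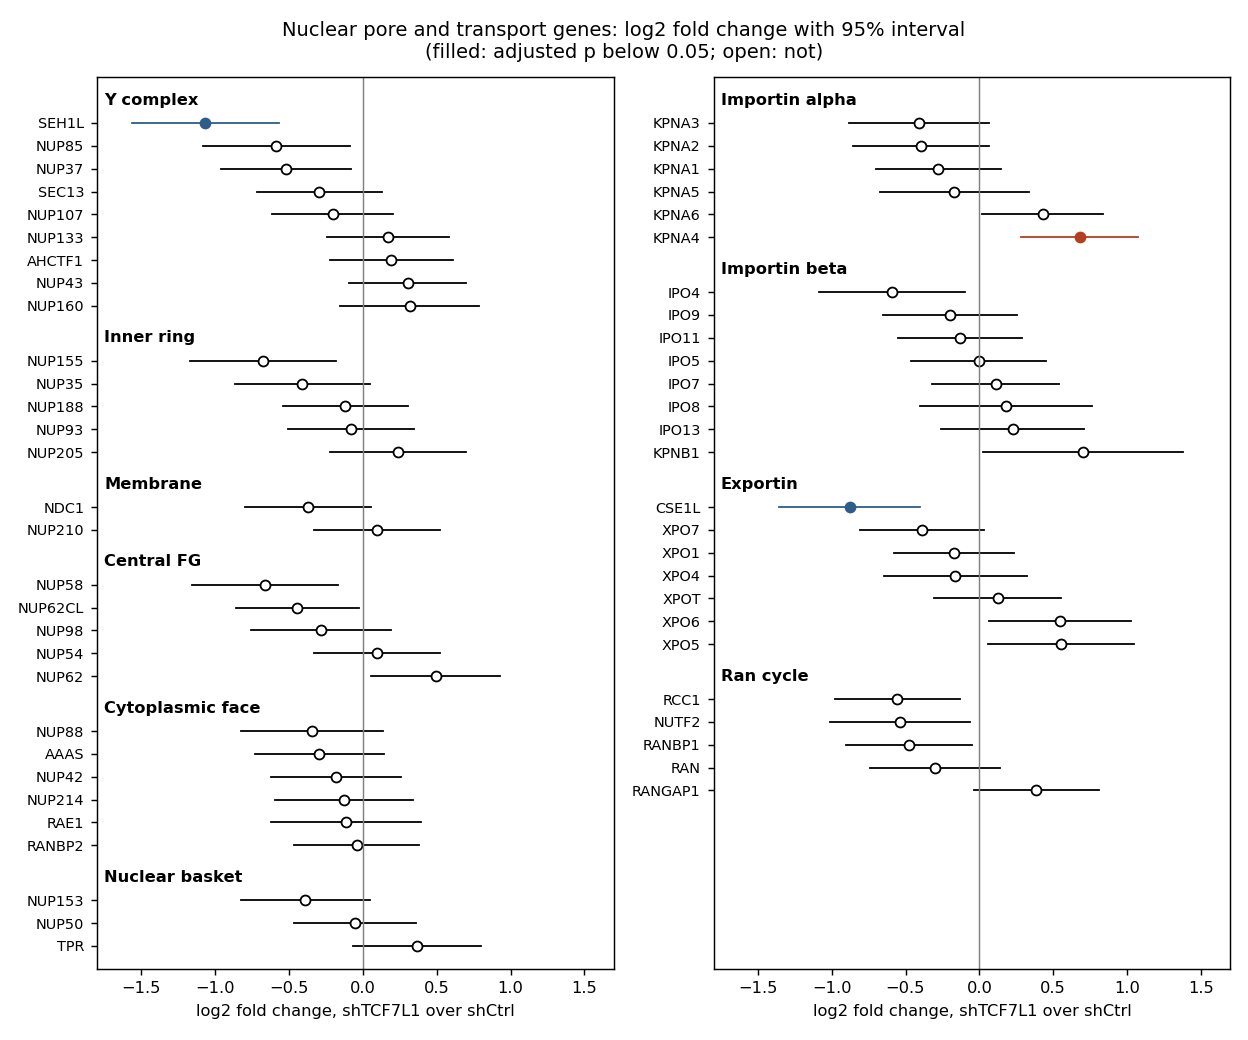
Log2 difference between shTCF7L1 and shCtrl (horizontal axis) with its 95% interval for the 56 tested members, grouped by role (left, pore structure; right, transport factors). Filled points are the 3 genes with an adjusted p below 0.05, SEH1L (-1.07) and CSE1L (-0.88) in blue and KPNA4 (0.68) in orange; open points did not pass.

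Of the inner ring, the scaffold that lines the channel, 0 of 5 members passed, and 1 was lower at an unadjusted p below 0.05. NUP155, which links the scaffold to the membrane, came closest. It read 8.19, 7.80 and 7.37 in shTCF7L1, against 8.41, 8.21 and 8.76 in shCtrl. The groups lay close without overlapping, and the difference was -0.68 (SE 0.23, adjusted p = 0.0626). NUP155 passed without shTCF7L1 replicate 1 (-0.88, adjusted p = 0.0381). Leaving out shTCF7L1 replicate 3 gave -0.47 (adjusted p = 0.222), and leaving out shCtrl replicate 3 an adjusted p of 0.215. NUP35, a membrane-binding inner ring protein, gave -0.41 (SE 0.22) and -0.50 with its other probe, with overlapping groups for both. NUP188, NUP93 and NUP205 gave values between -0.12 and 0.24. The membrane members NDC1 and NUP210 gave -0.37 (SE 0.20, groups apart) and 0.09 (SE 0.20), and neither passed. The NUP210 value was -0.01 without shTCF7L1 replicate 1 or shCtrl replicate 3.

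FG nucleoporins of the central channel form the barrier that transport receptors cross. Of 5 members 0 passed, with 2 lower and 1 higher at an unadjusted p below 0.05, and partners of 1 complex had values of opposite sign. NUP62, an FG protein of the central channel complex, read 10.40, 10.21 and 10.24 in shTCF7L1, against 9.95, 9.47 and 9.95 in shCtrl. All shTCF7L1 values were the higher ones, by 0.49 on average (SE 0.21, adjusted p = 0.117), and the other NUP62 probe gave 0.32 with overlapping groups. NUP58, its partner, read 4.89, 4.56 and 4.91 in shTCF7L1, against 5.95, 5.11 and 5.27 in shCtrl. These groups did not overlap either, but the levels were near the detection limit and the probe was above background on 5 of 6 arrays (difference -0.66, SE 0.23, adjusted p = 0.0661). Without shCtrl replicate 1 the NUP58 difference was -0.41 (adjusted p = 0.274). NUP54, the other partner, gave 0.10, and -0.20 with its other probe. NUP98, which also gates messenger RNA export, gave -0.28 and -0.21 with its 2 kept probes. NUP62CL, a NUP62-like gene, gave -0.44 (SE 0.20, adjusted p = 0.143) with groups apart.

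On the cytoplasmic face all 6 members had values below 0 and small ones, from -0.34 to -0.04. None passed, none had an unadjusted p below 0.05, and the groups overlapped in every case. NUP88 (-0.34, SE 0.23), which anchors cytoplasmic filaments with NUP214, and AAAS (-0.29, SE 0.21), the gene of triple A syndrome, had the smallest p. Without shTCF7L1 replicate 3 these differences were -0.11 and -0.15. NUP42, NUP214, RAE1 and RANBP2 gave -0.18, -0.13, -0.12 and -0.04. The second NUP42 probe gave 0.22 and the second RAE1 probe -0.35. RANBP2, the large filament protein that binds Ran, has near-identical relatives in the RGPD family, so its probe may read more than 1 gene.

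Of the nuclear basket, the filaments that face chromatin, 0 of 3 members passed and 0 had an unadjusted p below 0.05. NUP153 read 7.33, 7.22 and 7.23 in shTCF7L1, against 7.95, 7.62 and 7.37 in shCtrl. TPR, the main filament protein, read 8.85, 8.48 and 8.30 in shTCF7L1, against 8.14, 8.23 and 8.15 in shCtrl. Neither gene's groups overlapped, and the differences had opposite signs, -0.39 (SE 0.21, adjusted p = 0.218) and 0.37 (SE 0.20, adjusted p = 0.241). NUP153 gave -0.24 without shCtrl replicate 1, and TPR gave 0.22 without shTCF7L1 replicate 1. NUP50, which helps release import cargo, gave -0.05 (SE 0.19).

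Importin alpha proteins are adaptors that recognise the classical nuclear localization signal and bind importin beta. Of 6 tested genes 1 rose and 5 did not pass. KPNA4, an adaptor known for carrying NF-kB subunits, read 9.25, 9.34 and 9.31 in shTCF7L1, against 8.57, 8.67 and 8.63 in shCtrl. The values were tight within each group and far apart between groups. The mean was 9.30 ± 0.05 in shTCF7L1 and 8.62 ± 0.05 in shCtrl (SD, n = 3 each), so that KPNA4 rose by 0.68 (log2; SE 0.19, 1.60-fold, adjusted p = 0.0237). With single arrays left out the difference stayed between 0.65 and 0.70, and the adjusted p lay between 0.0496 and 0.0705. The call was thus lost without any 1 of the 3 shCtrl arrays or shTCF7L1 replicates 2 or 3.

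KPNA3, the closest relative of KPNA4, had a difference below 0 that did not pass. It read 7.47, 8.23 and 7.53 in shTCF7L1, against 8.23, 8.12 and 8.11 in shCtrl. Replicates 1 and 3 of shTCF7L1 were low and replicate 2 lay among the shCtrl values (difference -0.41, SE 0.22, adjusted p = 0.235). Without that replicate 2 the KPNA3 difference was -0.65 (adjusted p = 0.0665), and without replicate 1 of shTCF7L1 it was -0.27. The level of KPNA4 relative to KPNA3 on the same array was 1.78, 1.11 and 1.78 in shTCF7L1, against 0.33, 0.55 and 0.52 in shCtrl. That relative level was higher in shTCF7L1 by 1.09 without overlap (exact 2-sided permutation p = 0.1, the smallest possible, and 0.15 adjusted over 6 comparisons). This pair, like the KPNA6 pairs below, was chosen after the values were seen. With KPNA4 already called, the comparison is no separate support for its rise. KPNA6, KPNA1 and KPNA5 form another subfamily. KPNA6 read 8.23, 8.03 and 8.33 in shTCF7L1, against 7.82, 7.77 and 7.72 in shCtrl (difference 0.43, SE 0.19, adjusted p = 0.147, groups apart). KPNA1 and KPNA5 gave -0.28 and -0.17 with overlapping groups. KPNA6 relative to KPNA1 was higher by 0.71 in shTCF7L1 without overlap (exact p = 0.1), and KPNA6 relative to KPNA5 by 0.60 with overlap (exact p = 0.3; adjusted over the 6 comparisons, 0.15 and 0.36). KPNA2, whose level is known to follow proliferation, gave -0.39 (SE 0.22, adjusted p = 0.237) and -0.26 with its other probe.

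**Figure D3:**
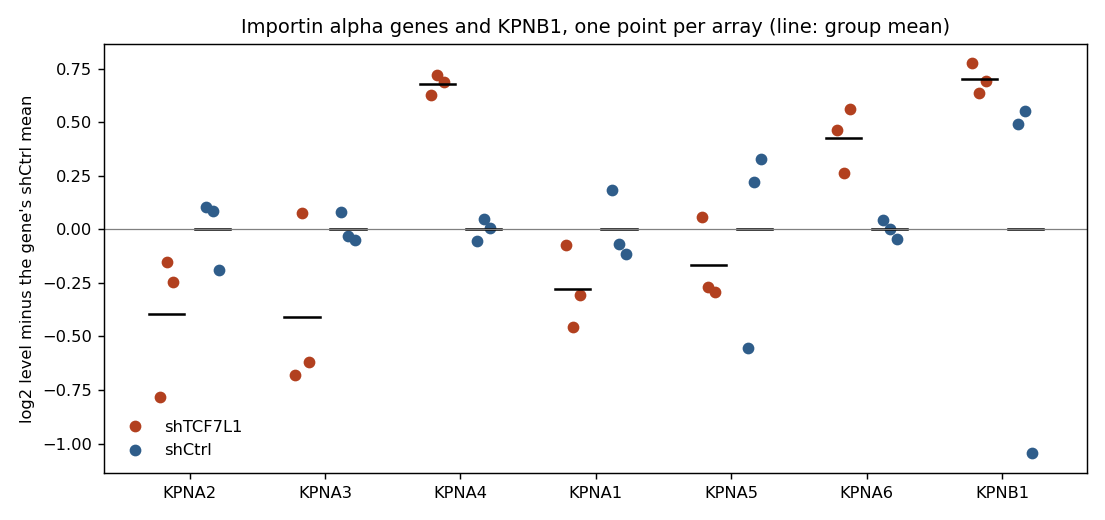
Log2 level of each array minus the shCtrl mean of the same gene (vertical axis) for 6 importin alpha genes and KPNB1, with shTCF7L1 arrays in orange on the left and shCtrl arrays in blue on the right of each pair; lines are group means. KPNA4 separates cleanly, KPNA6 lies higher in all 3 shTCF7L1 arrays, and 1 shCtrl value of KPNB1 (replicate 3) lies far below the other 2.

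Importin beta family receptors carry cargo through the FG barrier. Of 8 members 0 passed, with 1 lower and 1 higher at an unadjusted p below 0.05. KPNB1, the partner of importin alpha, had the largest positive difference of all members, 0.70, but an SE of 0.32 (adjusted p = 0.154). It read 10.50, 10.36 and 10.41 in shTCF7L1, against 10.21, 10.27 and 8.68 in shCtrl. The low value of shCtrl replicate 3 made most of that difference, which was 0.18 (adjusted p = 0.647) without it. IPO4, an importin of histones and ribosomal proteins, read 6.58, 6.47 and 5.77 in shTCF7L1, against 6.88, 6.65 and 7.06 in shCtrl (difference -0.59, SE 0.23, adjusted p = 0.0980). The groups of IPO4 did not overlap, and without the low shTCF7L1 replicate 3 the difference was -0.34 (adjusted p = 0.351). IPO5, IPO7, IPO8, IPO9, IPO11 and IPO13 gave values from -0.20 to 0.22, all with overlapping groups, and the IPO8 probe was above background on 5 of 6 arrays.

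Among the 7 exportins 1 fell and 6 did not pass. CSE1L, which returns importin alpha to the cytoplasm after each round of import, read 9.67, 9.51 and 8.85 in shTCF7L1, against 10.17, 10.28 and 10.21 in shCtrl. All shTCF7L1 values lay below all shCtrl values, and replicate 3 was the lowest. The mean was 9.34 ± 0.43 in shTCF7L1 and 10.22 ± 0.06 in shCtrl (SD, n = 3 each), so that CSE1L fell by 0.88 (log2; SE 0.23, 1.84-fold, adjusted p = 0.0159). Its other probe, ILMN_1665797, read 8.68, 9.13 and 9.13 in shTCF7L1, against 9.86, 9.57 and 9.81 in shCtrl. That probe fell by 0.77 (SE 0.21, adjusted p = 0.0223 over 16835 probes, of which 13% were called). The level of the first probe relative to the second was 0.99, 0.38 and -0.28 on the shTCF7L1 arrays. Its mean was 0.37 ± 0.63 in shTCF7L1 and 0.47 ± 0.21 in shCtrl (SD, n = 3 each). The relative level changed by -0.11 (exact permutation p = 0.9, or 0.9 adjusted over the 6 comparisons). With 3 against 3 arrays such a p cannot show that the 2 probes agree. The CSE1L call was lost without shTCF7L1 replicate 3 (-0.63, adjusted p = 0.0687) or shCtrl replicate 2 (-0.85, adjusted p = 0.0546), with the processed values of the authors (adjusted p = 0.0693) and without a detection filter (adjusted p = 0.0668).

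**Figure D4:**
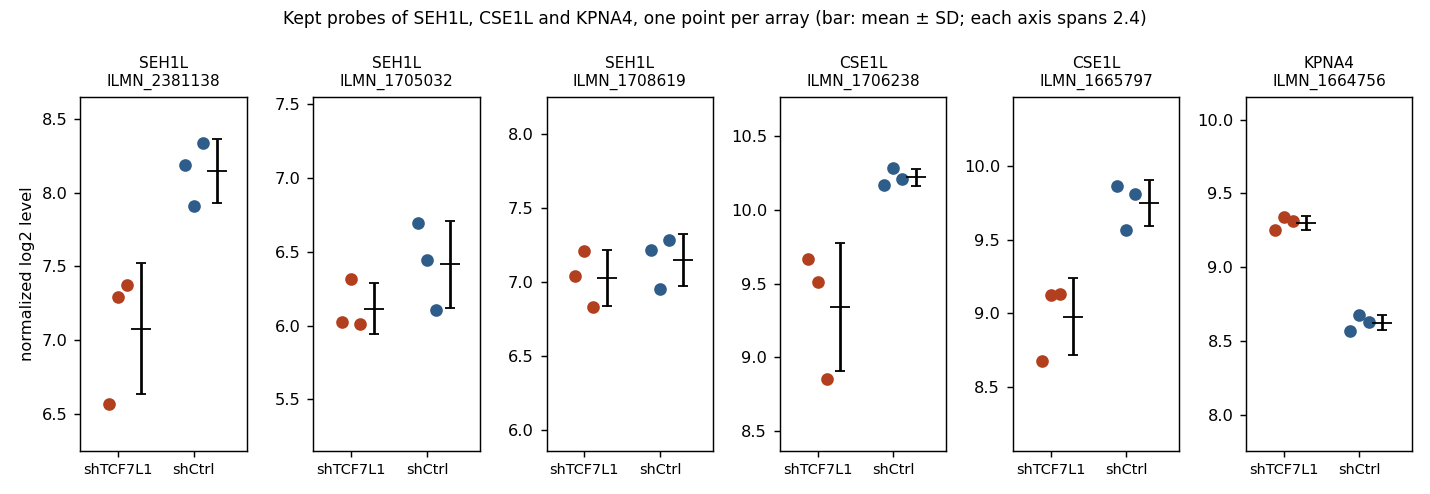
Normalized log2 level (vertical axes, each spanning 2.4 units) on every array for the kept probes of SEH1L, CSE1L and KPNA4, shTCF7L1 in orange and shCtrl in blue, with mean and SD beside the points. The groups are apart for 1 of 3 SEH1L probes, for both CSE1L probes and for the KPNA4 probe.

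The remaining exportins ranged from -0.39 to 0.55. XPO6, the exportin of actin and profilin, read 8.12, 7.92 and 7.97 in shTCF7L1, against 7.01, 7.89 and 7.47 in shCtrl (difference 0.55, SE 0.23, adjusted p = 0.117). Without the low shCtrl replicate 1 the XPO6 difference was 0.32 (adjusted p = 0.401). XPO5, which exports microRNA precursors, read 8.85, 8.87 and 8.09 in shTCF7L1, against 8.22, 8.08 and 7.84 in shCtrl (difference 0.55, SE 0.23, adjusted p = 0.121). Replicate 3 of shTCF7L1 overlapped the shCtrl values of XPO5, and without it the gene passed (0.81, adjusted p = 0.0299). XPO7 gave -0.39 (SE 0.20, groups apart). XPO1, the general exportin of leucine-rich export signals, gave -0.17 (SE 0.19, 95% interval -0.58 to 0.24). XPO4 gave -0.16 and -0.23 with its 2 kept probes, and XPOT, the exportin of transfer RNA, gave 0.12.

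The Ran cycle supplies the direction of transport. Of 5 members 0 passed, with 3 lower at an unadjusted p below 0.05, and the median was -0.48. Over all 10470 tested genes, 1471 were lower at that unadjusted p in limma, and the median was 0.02. RCC1, the chromatin-bound exchange factor that loads Ran with GTP, read 7.83, 8.13 and 8.04 in shTCF7L1, against 8.36, 8.66 and 8.64 in shCtrl. The groups did not overlap, and the difference of -0.55 (SE 0.20, adjusted p = 0.0700) passed in 2 alternatives. These were an offset of 50 in the background step (-0.50, adjusted p = 0.0398) and the average over RCC1 probes (-0.63, adjusted p = 0.0364). That average includes a second RCC1 probe near the detection limit, which gave -0.70 (SE 0.24, adjusted p = 0.0629). The second probe was above background on 1 of 3 shTCF7L1 and 3 of 3 shCtrl arrays. It thus met the detection filter through the group where it is higher. Neither its value nor the average is therefore separate support for a lower RCC1 level. NUTF2, which carries Ran-GDP back into the nucleus, gave -0.54 (SE 0.22, adjusted p = 0.117), with 7.62, 8.26 and 7.76 in shTCF7L1 against 8.68, 8.13 and 8.44 in shCtrl. Only shTCF7L1 replicate 2 and shCtrl replicate 2 crossed. RANBP1, a co-activator of GTP hydrolysis by Ran, gave -0.48 (SE 0.20, adjusted p = 0.124), and -0.37 with its other probe. It passed with median scaling alone among the alternatives. RAN gave -0.30 (SE 0.21) with its brighter probe and 0.07 with the other, and since the genome holds processed copies of RAN, which transcripts the probes read is uncertain. RANGAP1, the activator of GTP hydrolysis at the cytoplasmic filaments, gave 0.39 (SE 0.20, adjusted p = 0.212), the one member of the cycle above 0.

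Further transport genes outside the symbol rule were listed by role. Of 17 such genes 15 were tested, and 1 rose and 2 fell while 12 stayed short of the threshold (median difference -0.01). The share called was 20%, against 15% of all tested genes. DDX19A, a helicase that remodels messenger RNA at the pore, rose by 1.28 (SE 0.23, adjusted p = 0.00200). It read 8.11, 8.55 and 8.26 in shTCF7L1, against 7.26, 7.26 and 6.55 in shCtrl. The other kept DDX19A probe gave 0.66 (SE 0.23, limma adjusted p = 0.0675 over all kept probes) and did not pass, with groups apart. DDX19B, a near-identical relative of DDX19A, gave 0.31 (SE 0.21), so which of the 2 each probe reads is uncertain. NXT2, a partner of the messenger RNA export receptor, fell by 1.04 (SE 0.20, adjusted p = 0.00339), with 5.39, 5.60 and 5.40 in shTCF7L1 against 6.46, 6.28 and 6.77 in shCtrl. ALYREF, an adaptor of messenger RNA export, fell by 0.77 (SE 0.21, adjusted p = 0.0240), but its other probe gave 0.36 and the call ended in 7 of 17 alternatives (adjusted p up to 0.475), among them leaving out shTCF7L1 replicates 1 or 3 or shCtrl replicates 1 or 2. Of 15 genes of the nuclear lamina and envelope 14 were tested and 0 passed, with 2 lower and 1 higher at an unadjusted p below 0.05 in limma and a median of -0.16. Of 16 SUMO pathway genes, which modify RANGAP1 among other proteins, 10 were tested and 0 passed, with 2 higher at an unadjusted p below 0.05 in limma.

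Among the 15 members with further kept probes, 12 of the 16 further probes had the sign of the probe that stood for the gene and 4 the opposite sign. The 4 were those of NUP42, NUP54, RAN and SEC13, none of which passed with either probe. Differences for these members are therefore not settled in direction.

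**Figure D5:**
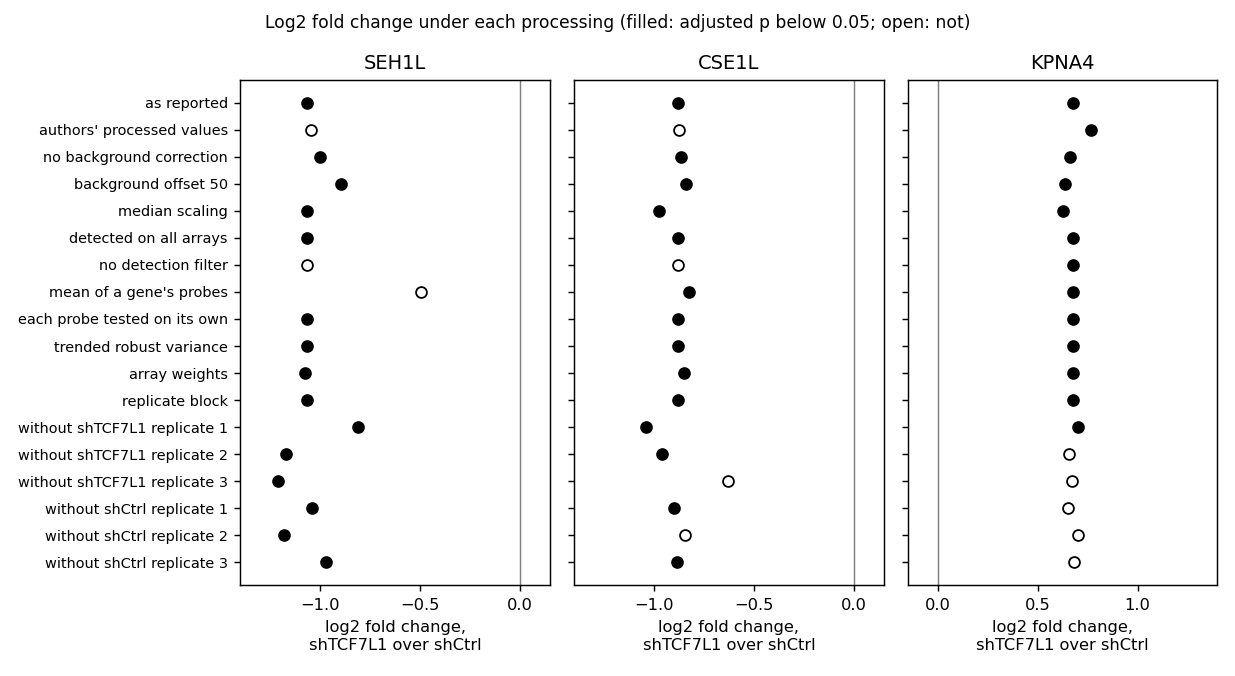
Log2 difference between shTCF7L1 and shCtrl (horizontal axes) of SEH1L, CSE1L and KPNA4 as reported and under 17 other ways of processing (rows); filled points have an adjusted p below 0.05. All differences keep their sign, SEH1L is called in 14 of the 17 alternatives, CSE1L in 13 and KPNA4 in 12.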

How the data were processed

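Illumina bead arrays measured RNA of 3 shTCF7L1 and 3 shCtrl samples. The non-normalized intensity table and its detection p-values for 47225 probes were deposited by the authors, per the file headers, and came from GenomeStudio version 2011.1, per the submitters' processing notes. The authors' matrix holds a second set of intensities, background subtracted and scaled to a common array mean of 145.7, as the values show; it served as an alternative, floored at 1 before log2.

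Intensities were normalized with neqc of limma 3.58.1 (R 4.3.3; offset 16, quantile). Probes with a detection p under 0.01 on 3 or more of the 6 arrays were kept (16835 probes). Symbols came from the platform annotation (8 probes with several symbols and 17107 not listed were left unnamed) and were updated through RefSeq GRCh38.p14 (30071 of 30110 probes matched). The kept probe of highest mean stood for a gene, which left 10470 genes. Groups were compared with limma (2-sided, no block), with Benjamini-Hochberg over all genes. Further probes were fitted over all kept probes. Each array detected 34.0% to 36.8% of its probes, and the number of arrays (6) limits the precision.

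The members, lists and tests were chosen with earlier results of these data known. Named are TCF7L1, changed members, the 2 members of smallest p in each role that did not pass, and up to 4 changed genes of each further list. Other members are given by value to account for all of them. Same-numbered arrays did not deviate together (correlations -0.011 to -0.006), so replicate numbers were not used as pairs. These correlations cannot show whether same-numbered samples were prepared together. The fit was tested on simulated data.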

Additional observations from a re-analysis of the deposited data

How the results depend on the processing

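Over 17 alternatives and 29 named genes, 455 of 492 differences kept their direction and their side of the threshold, 28 lost the call, 7 gained it and 2 reversed. Those 2 were NUP210, at -0.005 without shTCF7L1 replicate 1 and -0.008 without shCtrl replicate 3. With the processed values of the authors 1033 genes changed in place of 1566, 68.6% of them higher in place of 52.5%. That setting called 2 members higher and 0 lower (limma, 6 lower at an unadjusted p below 0.05), and the members' median was -0.062, which is 0.191 below that of all genes. Without a detection filter, where 20043 genes were tested, 0 members were lower (limma, 14 at an unadjusted p below 0.05) and 1115 genes changed. With 1 array left out, 1007 to 1156 genes changed, 0 to 1 members were higher and 1 to 4 lower, and the members' median was -0.194 to -0.132. With the replicate block 1451 genes changed, and the same 3 members, KPNA4, CSE1L and SEH1L, were called. TCF7L1, which failed the detection filter, passed in limma with the processed values of the authors (-2.66, adjusted p = 0.0272). That value is a log2 difference of background-subtracted signals floored at 1. It also passed with median scaling (-0.59, adjusted p = 0.0474). The cause of these differences between settings was not tested. NUP58, IPO8, the second RCC1 probe, TCF7L1 and the 3 untested members lie near or below the detection limit, where signal over background limits what a difference can show.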
